A study of Mus musculus with 6 samples.

Results

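The genes described here are those of glycolysis and of the transcriptional response to low oxygen, 37 genes listed by name. They were found as all probes whose symbol in the platform annotation was on the list, which gave 64 probes of 34 genes out of 19057 named genes on the array. Hk2, Gpi1 and Eno1 had no probe under those symbols and were not analysed here. Their transcripts were measured in NIH3T3, an immortalized mouse fibroblast line, in 6 separate stably transfected lines, each hybridised to 1 Illumina bead array. Clones FEAT 3, FEAT 15 and FEAT 20 (labelled FEAT-3, FEAT-15 and FEAT-20) carried pEF-DEST51-FEAT, in which the elongation factor 1 alpha promoter drives the open reading frame of human FEAT, now called METTL13 or EEF1AKNMT, a methyltransferase of the elongation factor eEF1A. They were picked as colonies under blasticidin S and screened for overexpressed FEAT protein, a step the design text does not give for the controls. The control lines 1, 2 and 3 (∆ccdB-1, ∆ccdB-2 and ∆ccdB-3) carried this vector without FEAT and without its ccdB gene. The design text calls them cell lines and does not say that each grew from 1 colony, and they are called clones here for short. All 6 share the parental line, so a replicate here is a clone. The p-values set the difference between the groups against the spread of clones within a group, moderated over all tested probes. The labels give neither oxygen supply nor culture density, and no sample is labelled as hypoxic.

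Glycolysis splits glucose into pyruvate in the cytosol and yields ATP without oxygen, and lactate dehydrogenase then turns pyruvate into lactate, which monocarboxylate transporters export. When oxygen is ample, prolyl hydroxylases of the EGLN family mark the alpha subunits of the hypoxia-inducible factors (HIF) for the von Hippel-Lindau protein, which leads to their breakdown. When oxygen falls, the stabilised subunits bind hypoxia response elements and raise the transcripts of glucose transporters, most glycolytic enzymes and a further set of targets such as Ndrg1, Adm and Car9. HIF proteins are controlled mainly by breakdown, so the level of Hif1a mRNA does not show the activity of the factor.

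Levels per clone are given as scaled intensity, the value in the deposited table of the series, where each array has the same mean of 680.2. Background was not subtracted from it, and the limit above which a probe counts as above background lay between 94.2 and 109 on this scale. Between 36.9% and 39.8% of the 45281 probes were above it. Of the 10 fibroblast markers looked at, among them Col1a1, Vim and Thy1, 9 were above background on all 6 arrays. The exception was Lum, with 0 arrays above. Of 4 epithelial markers Cdh1 alone was above it on all arrays, at a mean of 117, and of 4 endothelial, 2 leukocyte, 3 adipocyte and 2 melanocyte markers 0 were. Of 3 skeletal muscle markers, Des was above it on all arrays, at 125, Myog on 4 arrays, at 104, and Myod1 on 0, at 75.9. The brightest of 5 tested probes of Eef1aknmt, the mouse counterpart of FEAT, had a mean of 687 ± 104 over the control and 707 ± 52.0 over the FEAT lines (SD, n = 3; limma, adjusted p = 0.979), and since the insert was human this is no check of it. The other 4 probes were lower in FEAT clones and did not pass, the largest difference being -0.59 (limma, unadjusted p = 0.000745, adjusted p = 0.146) on a probe with means of 120 ± 6.66 and 93.7 ± 7.25 (SD, n = 3).

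No gene of the set differed between the groups after adjustment over all probes. Of the 31 genes bright enough to be tested on their brightest probe, 0 passed an adjusted p of 0.05 (limma's moderated test, Benjamini-Hochberg over 27169 probes), where 0.225% of all 13315 genes tested did. With an unadjusted p under 0.05 there were 3, Ndrg1, Adm and Slc16a1, against 10.1% of all genes. Adm and Slc16a1 made 2 higher, against 5.2% of all genes, and Ndrg1 made 1 lower, against 4.94%. Groups that did not overlap were found for 2 of the 31, against 15.2%, with Slc16a1 higher in FEAT clones (7.95% of all genes) and Ndrg1 lower (7.24%). Of the 31, 15 had a difference above 0 and 16 below, and 51.6% of all genes were above. The median log2 difference, FEAT minus control, was -0.0099 over the set and 0.0071 over all genes. The sign of the former turned with the processing and with the omission of most of the clones. The median size without regard to sign was 0.12 on the log2 scale over the set and 0.13 over all genes.

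A p that misses the threshold does not show that the groups are alike, so the intervals matter more than the calls. The 95% interval of the difference lay within 2-fold either way for 29 of the 31 genes, the exceptions being Ndrg1 and Adm, and for 96.7% of all genes. It lay within 1.5-fold for 25 of the 31 and for 75% of all genes. Of the 31, 23 were above background on all 6 arrays, Ndrg1 and Adm among them. Slc2a3, Slc16a1, Car9 and Car12 made 4 that were above it on no array. For a probe at background, a narrow interval bounds the signal and not the transcript. Gapdh, Ldha and Pfkm were above background on all 6 arrays. Their intervals ran from -0.29 to 0.32, from -0.22 to 0.38 and from -0.29 to 0.27 on the log2 scale.

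**Figure D1:**
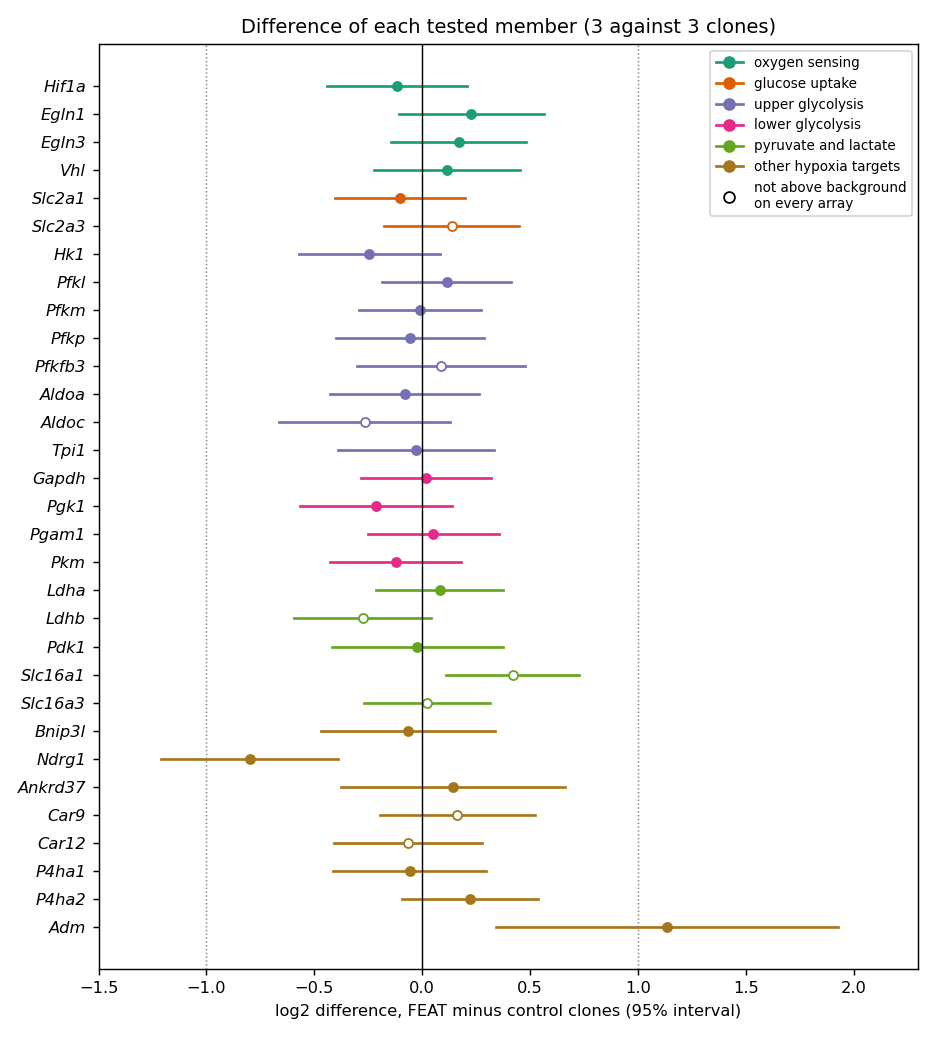
Log2 difference between FEAT and control clones (x axis) for the 31 tested genes (y axis, brightest probe), with 95% intervals from limma and colours by role; open circles mark probes not above background on every array, and dotted lines mark 2-fold. The interval crosses 0 for every gene except Ndrg1, at -0.80, Slc16a1, at 0.42, and Adm, at 1.14.

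Ndrg1, a stress-inducible cytoplasmic protein whose transcript is a common marker of hypoxia, had the smallest p of the set. Its brightest probe read 3782, 2915 and 2657 in control clones 1, 2 and 3, and 2000, 1454 and 2047 in FEAT clones 3, 15 and 20. All FEAT clones lay below all control clones, and the lowest was FEAT 15. The means were 3118 ± 589 and 1834 ± 330 (SD, n = 3 clones each). The log2 values differed by -0.80 (SE 0.19, 95% interval -1.21 to -0.39), which did not pass (limma, unadjusted p = 0.00121, adjusted p = 0.165). The other Ndrg1 probe read 2652, 1790 and 1975 in the control clones and 1782, 1267 and 1403 in the FEAT clones. There FEAT 3 came close to control 2, and on the normalized log2 values the groups overlapped, with a difference of -0.57 (adjusted p = 0.388). Since each array holds RNA of a whole culture, fewer cells with the transcript and less of it per cell cannot be told apart.

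Adm encodes adrenomedullin, a secreted vasodilator peptide induced by HIF in many cell types. Its probe read 219, 404 and 174 in control clones 1, 2 and 3, and 319, 517 and 768 in FEAT 3, FEAT 15 and FEAT 20. The groups overlapped, because control 2 lay above FEAT 3, and the clones within a group spread more than for any other tested gene of the set. The means were 266 ± 122 and 535 ± 225 (SD, n = 3 clones each). On the log2 scale they differed by 1.14, or 2.20-fold (SE 0.36, 95% interval 0.34 to 1.93), with an adjusted p of 0.342 (limma). Adm was the 1 tested gene of the set with a difference of at least 2-fold, against 0.556% of all genes. Over the 6 omissions of a clone the difference ran from 0.81 to 1.55, with adjusted p of 0.0517 to 0.675 (limma). The 1.55 and the 0.0517 were without control 2, the highest control clone for Adm. In that omission 158 probes of the array were called, against 50 with all clones. With limma's trended, robust variance model the unadjusted p was 0.0738.

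Slc16a1 encodes MCT1, a proton-linked transporter of lactate and pyruvate. Its probe read 77.3, 79.3 and 73.6 in the control clones and 101, 82.6 and 83.2 in FEAT 3, FEAT 15 and FEAT 20. All FEAT clones were above all control clones, but the probe was not above background on any of the 6 arrays, so no fold is given. The normalized values differed by 0.42 (SE 0.14; limma, adjusted p = 0.380), and without the background correction by 0.21.

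**Figure D2:**
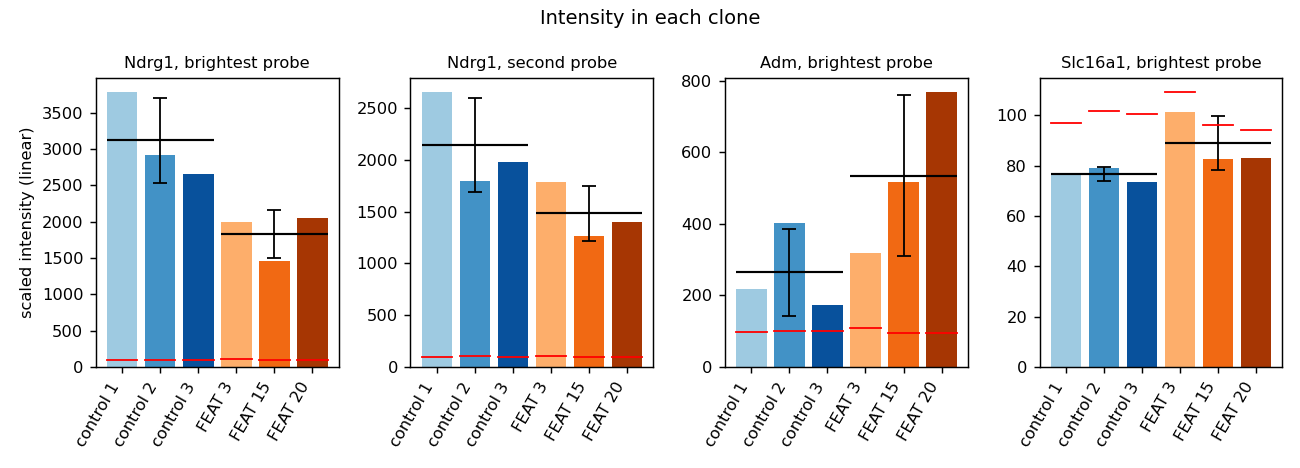
Scaled intensity (y axis, linear from 0) of both Ndrg1 probes and of the Adm and Slc16a1 probes in each clone (x axis); black lines are group means with SD (n = 3 clones), and red lines the background limit of each array. The brightest Ndrg1 probe lies between 1454 and 2047 in FEAT clones and between 2657 and 3782 in control clones, while Adm overlaps and Slc16a1 stays under the limit in all 6 clones.

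Promoter sequence was looked at because HIF acts on these genes through a short core, ACGTG or GCGTG, which was searched for on both strands (as CACGT or CACGC on the printed strand). RefSeq promoters of build GRCm38.p6, from 250 bases before to 50 bases after the start, were found for 33 of the 37 listed genes, not for Epas1, Slc2a3, Bnip3l or Ndrg1. At least 1 core was present in at least 1 promoter of 28 of the 33 genes (84.8%) and of 62.6% of the array's tested genes in the same table. The narrower ACGTG was present in 22 of the 33 (66.7%) and in 27.3% of those tested genes. Some of the 33 were not tested on the array, and over all 27025 genes with promoters the shares were 46.7% and 21.8%. The list was made of glycolytic and hypoxia-inducible genes, and its higher share was not tested. Counted by promoter, ACGTG was in 25 of 46 promoters of the set (54.3%) and in 19.6% of all 32851. ACGTG on the 2 strands overlaps within CACGTG, the E-box, which other factors read as well. Shown are the 4 genes of the smallest p whose promoters hold a core, and Ldha, a promoter of which held the most, with 7. The table also holds a second Hk1 promoter with 0 cores and a second Ldha promoter with 2, not printed. They are Adm (chr7:110627407-110627706, plus strand), Slc16a1 (chr3:104638414-104638713, plus strand), Ldhb (chr6:142507908-142508207, minus strand), Hk1 (chr10:62340372-62340671, minus strand) and Ldha (chr7:46845554-46845853, plus strand). Each is printed 5′ to 3′ on the strand of its gene, with the cores in capitals.
Adm: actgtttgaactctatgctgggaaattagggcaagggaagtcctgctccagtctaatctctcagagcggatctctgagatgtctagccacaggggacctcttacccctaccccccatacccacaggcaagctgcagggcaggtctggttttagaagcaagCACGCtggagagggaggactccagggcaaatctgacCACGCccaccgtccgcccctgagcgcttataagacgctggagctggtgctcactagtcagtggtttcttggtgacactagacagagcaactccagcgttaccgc
Slc16a1: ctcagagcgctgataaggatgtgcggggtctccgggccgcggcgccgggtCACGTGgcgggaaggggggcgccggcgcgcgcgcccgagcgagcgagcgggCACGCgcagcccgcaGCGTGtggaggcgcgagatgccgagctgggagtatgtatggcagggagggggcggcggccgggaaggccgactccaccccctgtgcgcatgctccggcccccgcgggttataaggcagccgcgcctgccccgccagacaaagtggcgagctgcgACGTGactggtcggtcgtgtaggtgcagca
Ldhb: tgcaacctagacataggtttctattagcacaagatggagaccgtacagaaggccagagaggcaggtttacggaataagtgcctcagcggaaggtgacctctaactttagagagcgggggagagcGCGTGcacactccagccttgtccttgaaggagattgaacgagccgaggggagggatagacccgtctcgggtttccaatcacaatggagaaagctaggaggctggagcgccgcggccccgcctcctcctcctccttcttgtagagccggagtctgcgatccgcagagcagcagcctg
Hk1: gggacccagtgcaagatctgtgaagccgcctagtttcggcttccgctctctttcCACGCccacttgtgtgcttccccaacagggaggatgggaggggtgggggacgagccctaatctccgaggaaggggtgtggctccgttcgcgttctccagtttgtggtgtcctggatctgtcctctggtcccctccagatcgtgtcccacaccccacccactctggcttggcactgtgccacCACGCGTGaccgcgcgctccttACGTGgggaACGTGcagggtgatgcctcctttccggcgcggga
Ldha: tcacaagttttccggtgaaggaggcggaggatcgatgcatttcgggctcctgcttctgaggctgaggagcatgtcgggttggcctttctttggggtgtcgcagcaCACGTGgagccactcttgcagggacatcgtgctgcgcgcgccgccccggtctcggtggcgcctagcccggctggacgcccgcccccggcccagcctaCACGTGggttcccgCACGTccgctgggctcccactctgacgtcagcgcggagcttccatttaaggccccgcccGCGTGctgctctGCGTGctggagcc
Adm held 2 cores, both read on the opposite strand, 90 and 54 bases before the start, and Ldhb held 1, 126 bases before it. Slc16a1 held 5, of which a pair overlap in a CACGTG starting 200 bases before the start. The promoters printed for Hk1 and Ldha held 5 and 7, the latter with 4 in a pair of CACGTG motifs starting 145 and 48 bases before the start. Ldha, with the most cores in 1 promoter, had a log2 difference of 0.08, and Adm, with 2, had 1.14. A match of letters is not a binding site, and no binding was measured here.

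Among the oxygen sensors and factors, 4 of the 5 genes were tested, with log2 differences from -0.12 to 0.23 and 0 past the threshold. Egln1, the main prolyl hydroxylase PHD2, read 202, 250 and 250 in control clones and 262, 245 and 295 in FEAT clones. FEAT 20 was highest, and the groups overlapped. The difference was 0.23 (adjusted p = 0.704), with 0.26 and 0.29 on its other probes, where the FEAT clones lay above all control clones (adjusted p = 0.594 and 0.611). Egln3, the hydroxylase PHD3 and itself a HIF target, read 278, 295 and 273 in control clones and 267, 345 and 342 in FEAT clones. FEAT 15 and FEAT 20 were above every control clone and FEAT 3 below, a difference of 0.17 (adjusted p = 0.773). Hif1a, the oxygen-labile subunit of HIF-1, read 628, 549 and 654 in control clones and 536, 676 and 523 in FEAT clones, a difference of -0.12 (adjusted p = 0.860). Its groups overlapped, and its other tested probe, not above background on any array, gave 0.06. Vhl, the recognition subunit of the ubiquitin ligase, differed by 0.12. Epas1, the gene of HIF-2 alpha, had scaled intensities of 57.8 to 91.4 on 2 probes, under the background limit throughout, and was too dim to be tested.

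Glucose uptake was represented by Slc2a1, the widespread transporter GLUT1, and Slc2a3, GLUT3. Slc2a1 read 5828, 7087 and 6305 in control clones and 5966, 5741 and 6236 in FEAT clones. The FEAT clones lay close together inside or just below the control range, with a log2 difference of -0.10 (95% interval -0.40 to 0.20; adjusted p = 0.870). Slc2a3 read 77.0, 80.6 and 86.1 in control clones and 92.6, 77.8 and 87.6 in FEAT clones. Neither group reached the background limit on any array, and they overlapped.

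Of the enzymes from hexokinase to triosephosphate isomerase and their regulator Pfkfb3, 8 of 10 were tested, with differences from -0.27 to 0.11 and a median of -0.042. Hk1, the housekeeping hexokinase that phosphorylates glucose, read 488, 623 and 609 in control clones and 467, 557 and 469 in FEAT clones. FEAT 15 lay inside the control range and the other FEAT clones below it, a difference of -0.24 (SE 0.15, adjusted p = 0.672). The other Hk1 probe read 171, 181 and 164 in control clones and 144, 146 and 136 in FEAT clones, without overlap, and differed by -0.37 (SE 0.13; unadjusted p = 0.0144, adjusted p = 0.397). The phosphofructokinase genes, whose enzyme commits sugar to glycolysis, differed by 0.11 for Pfkl, -0.0099 for Pfkm and -0.06 for Pfkp. Pfkl read 2678, 2465 and 2728 in control clones and 2421, 3077 and 3189 in FEAT clones, with FEAT 3 below and the other FEAT clones above all controls. Its other probe gave -0.17, so its probes disagreed in sign.

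Aldoa, the muscle-type aldolase found in most cells, differed by -0.08 and Tpi1, triosephosphate isomerase, by -0.03. The brain-type aldolase Aldoc read 99.4, 83.5 and 91.7 in control clones and 99.9, 76.1 and 72.9 in FEAT clones. It was above background on 1 of 6 arrays, that of control 1, and its difference of -0.27 did not pass (adjusted p = 0.709). Pfkfb3, whose product makes the activator fructose 2,6-bisphosphate, was above background on 2 arrays of each group and differed by 0.09. Gapdh, Pgk1, Pgam1, Tpi1 and Ldha have processed copies in the mouse genome, and which copies their probes read is uncertain.

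The enzymes from Gapdh to Pkm, which make ATP and NADH, were among the bright probes, and 4 of 6 were tested with differences from -0.22 to 0.05. Pgk1, which makes the pathway's first ATP, read 19987, 17482 and 17159.9 in control clones and 11838, 17815 and 16156 in FEAT clones. On this probe FEAT 3 stood far below the other clones, which lay between 16156 and 19987. The difference was -0.22 (SE 0.16, adjusted p = 0.739), and it was -0.05 without FEAT 3. A much dimmer Pgk1 probe, also above background on all 6 arrays, gave -0.04. There FEAT 3, at 142, was lowest but close to control 3, at 146. Pkm, the pyruvate kinase of proliferating cells and muscle, read 39693, 34353 and 35737 in control clones and 35021, 33830 and 31081 in FEAT clones. Control 1 was highest, and the difference was -0.12 (adjusted p = 0.837), with 0.30 on its other, much dimmer probe. Pgam1, phosphoglycerate mutase, read 3182, 3224 and 3065 in control clones and 2698, 3495 and 3751 in FEAT clones. The control clones lay close together, with FEAT 3 below and the other FEAT clones above them, and the difference was 0.05 (adjusted p = 0.942). Its other probe gave 0.33. Gapdh differed by 0.02 on the normalized values. Its scaled intensities went the other way, with means of 24089.8 in control and 23860.1 in FEAT clones (SDs of 2511 and 1885 over 3 clones each). Eno2, the neuronal enolase, lay under the background limit throughout and was too dim to be tested.

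At the branch after pyruvate, Ldha, which turns pyruvate into lactate, read 27559, 28863 and 26345 in control clones and 25489, 28908 and 29360 in FEAT clones. The groups overlapped, with a difference of 0.08 (adjusted p = 0.903). Ldhb, the heart-type subunit that favours lactate oxidation, read 99.6, 107 and 109 in control clones and 98.1, 85.8 and 101 in FEAT clones. It was above background on all 3 control arrays but on 1 of 3 FEAT arrays, that of FEAT 20, and differed by -0.28 (SE 0.14; unadjusted p = 0.0834, adjusted p = 0.610). Pdk1, the kinase that shuts pyruvate dehydrogenase, differed by -0.02, with 1245 in control 1 and 801 in FEAT 3 as its extremes. Slc16a3, the lactate exporter MCT4, was above background on 1 array of each group and differed by 0.02.

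Of the other hypoxia targets, 8 of 9 were tested, with a median of 0.042. P4ha2, a subunit of the prolyl hydroxylase that stabilises collagen, read 1756, 1941 and 1605 in control clones and 1795, 2354 and 2187 in FEAT clones. FEAT 3 lay inside the control range and the other FEAT clones above it, a difference of 0.22 (adjusted p = 0.691). A dimmer P4ha2 probe had 0.27 without overlap (adjusted p = 0.588). Its partner P4ha1 differed by -0.06, with control 1 highest at 917. The mitophagy receptor gene Bnip3l differed by -0.06, and Bnip3, its relative, was not above background on any array. The ankyrin repeat gene Ankrd37, a small HIF target, ran from 136 in control 3 to 221 in FEAT 20 and differed by 0.14. The carbonic anhydrase genes Car9 and Car12, which regulate pH outside the cell, were not above background on any array. With Epas1, Slc2a3, Eno2, Slc16a1 and Bnip3 they made 7 genes of the set without a single array above background on any probe.

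For most genes of the set the clones of a group spanned more than the difference between the groups. Of the 23 genes whose brightest probe was above background on all 6 arrays, the range of the 3 FEAT clones was larger than the difference between the groups for 21 genes (91.3%, and 76.2% of all 8517 genes with such probes), and that of the control clones for 20 (87%, and 80.3%). FEAT 3 read lowest of the 6 clones for 12 of the 23 genes (52.2%), where it was lowest for 14.9% of all such genes. FEAT 20 read highest for 9 of the 23 (39.1%), against 17.6% of all such genes. The median log2 value over the 23 genes, relative to the control mean of each gene, was -0.16 in FEAT 3, 0.058 in FEAT 15 and 0.18 in FEAT 20, whereas the control clones 1, 2 and 3 had -0.0050, 0.11 and -0.051. Over all genes with such probes these medians lay between -0.0081 and 0.0090, on values that quantile normalization gives the same distribution on every array. In the deposited value table, without quantile normalization, FEAT 3 was lowest for 13 of the 23 and for 19.2% of all genes, and FEAT 20 highest for 10 and for 21.7%. There the medians over the 23 genes were -0.14, 0.073 and 0.19 in FEAT 3, FEAT 15 and FEAT 20. They were -0.0050, 0.10 and -0.066 in control clones 1, 2 and 3. Over all genes with such probes they lay between -0.014 and 0.038. FEAT 3 and FEAT 20 were singled out after their values were seen, and no test of a single clone is possible.

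On the brightest probes FEAT 3 stood lowest chiefly among the glycolytic genes. Of the 12 glucose transporter, glycolytic enzyme and lactate dehydrogenase genes above background on all arrays, it was lowest for 9 (75%), and highest for 0. In the deposited value table it was lowest for 10 of these 12, without Pkm, where FEAT 20 was lowest, and with Hk1 and Gapdh. The normalized values of the 9 genes were -0.54 for Pgk1, -0.35 for Aldoa, -0.27 for Pfkp, -0.26 for Tpi1, -0.17 for Pkm, -0.16 for Pgam1, -0.13 for Pfkm, -0.11 for Ldha and -0.08 for Pfkl, each relative to the mean of the control clones on the log2 scale. Gapdh, at -0.09, was not part of this order, because control 1 was lower, at -0.15 on the normalized values. Control 2 came close to FEAT 3 for Pkm, at -0.15, and for Pfkl, at -0.07. Other probes of the 9 genes that were above background on all 6 arrays did not all keep the order. FEAT 3 was again lowest on a probe of Pgk1, of Tpi1 and of Pfkm. On others it was not. There it stood at 0.38 for Pkm, 0.06 for Pfkm, 0.05 for Pgam1, -0.06 for Pfkl, -0.24 for Tpi1 and -0.25 for Pfkp. The array of FEAT 3 also had the lowest mean intensity as deposited, 616 against 652 to 735 on the other arrays, and its part in this order was not tested. FEAT 20 stood highest for Adm, at 1.77, Ankrd37, at 0.68, Egln1, at 0.40, Bnip3l, at 0.31, Vhl and Egln3, both at 0.30, and by less for Pfkl, Pgam1 and Ldha. For Ndrg1 the lowest clone was FEAT 15, at -1.15, so the genes that are usually counted as HIF targets did not follow 1 order of clones. Among the control clones, control 1 read highest of all 6 for Ndrg1, at 0.30, for Pdk1 and P4ha1, both at 0.31, for Pkm, at 0.21, and for Pgk1, at 0.10.

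**Figure D3:**
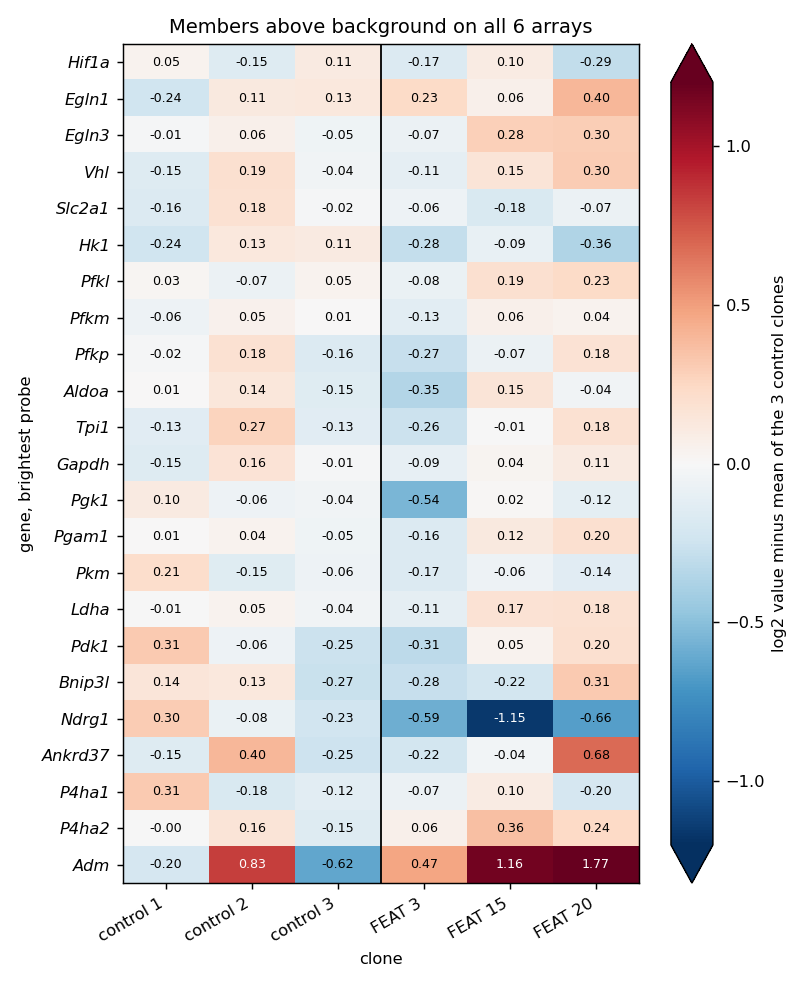
Log2 value in each clone (columns, control clones left of the line) minus the mean of the 3 control clones, for the 23 genes (rows, brightest probe) above background on all 6 arrays; colours end at 1.2 either way and the cells print the value. The glycolytic rows are mostly blue in FEAT 3, down to -0.54 for Pgk1, while Adm runs from 0.47 to 1.77 and Ndrg1 from -1.15 to -0.59 across the FEAT clones.

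Grouped by role, the medians of the clones crossed between the groups in each of the 6 roles. For the upper part of glycolysis the median was -0.19 in FEAT 3, -0.040 in FEAT 15 and 0.11 in FEAT 20, and -0.039, 0.14 and 0.0089 in the control clones. For the lower part it was -0.16, 0.026 and -0.0038 in FEAT clones and 0.055, -0.0088 and -0.046 in control clones. FEAT 3 was lowest in both parts, and in no other role except pyruvate and lactate, at -0.11, and oxygen sensing, where at -0.089 it was next to control 1 at -0.083. For the other hypoxia targets the median was -0.0066, -0.016 and 0.28 in FEAT clones and 0.061, 0.14 and -0.21 in control clones. FEAT 20 was above every control clone in oxygen sensing (0.30), glucose uptake (0.12), pyruvate and lactate (0.18) and the other hypoxia targets, but not in either part of glycolysis. The median within-group SD on the log2 scale was 0.17 in control and 0.20 in FEAT clones over the 31 genes tested, and 0.17 and 0.15 over all genes.

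**Figure D4:**
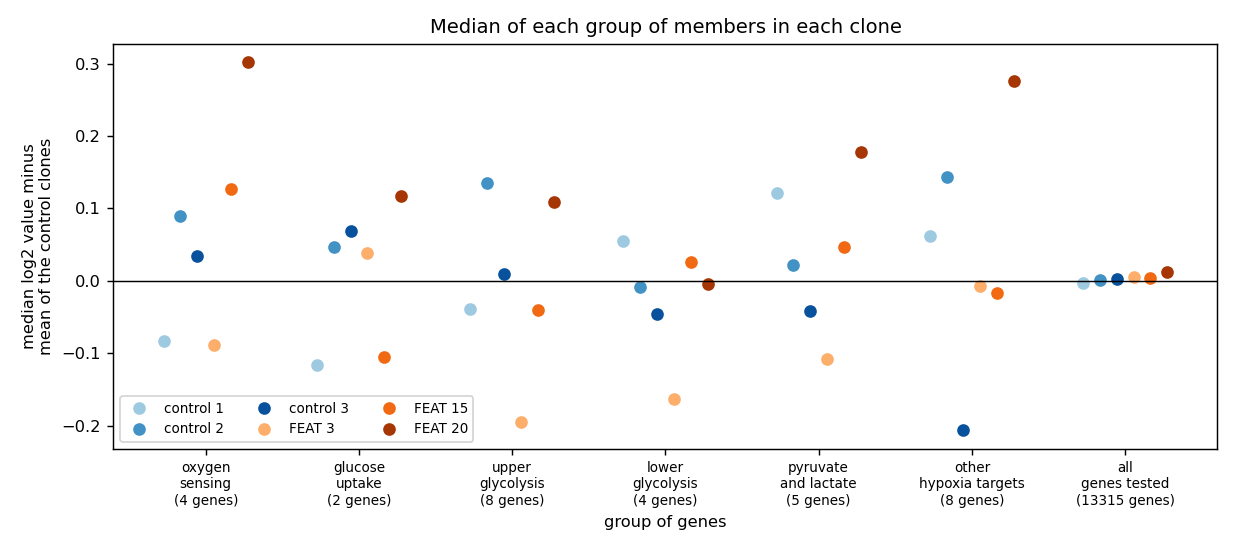
Median over the tested genes of each role (x axis, with the number of genes) of the log2 value minus the mean of the control clones (y axis), 1 point per clone, with all 13315 tested genes at the right. FEAT 3 is lowest in both parts of glycolysis, at -0.19 and -0.16, and FEAT 20 is highest for the oxygen sensors, at 0.30, and the other hypoxia targets, at 0.28.

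Several genes had more than 1 probe, and which stretch or isoform of a transcript each probe reads was not examined. Of the 12 genes with several probes above background on all 6 arrays, 8 had the same sign of difference on all of them. For Egln1 the 3 probes gave 0.23 to 0.29, for Hk1 the pair gave -0.37 and -0.24, and for P4ha2 0.22 and 0.27. The signs disagreed for Pfkl, Pfkm, Pkm and P4ha1, with Pkm having the widest gap, from -0.12 to 0.30. Of the 51 tested probes of the set, 0 passed, against 0.184% of all tested probes. An unadjusted p under 0.05 was found for 5, those of Ndrg1 (2), Hk1, Adm and Slc16a1, against 9.08% of all tested probes.

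A second list held 54 further genes of glycolysis, pyruvate entry into mitochondria and the hypoxia response. Of these 47 had a probe and 41 were tested, with 21 differences above 0, 20 below and a median of 0.0027. None passed (limma, 0 of 41 at adjusted p under 0.05, against 0.225% of all genes), and 6 had an unadjusted p under 0.05, against 10.1% of all genes. Of the 6, 5 were higher in FEAT clones and 1 lower, against 5.2% and 4.94% of all genes. Bhlhe40, a HIF-inducible transcriptional repressor, read 1030, 721 and 613 in control clones and 1245, 1327 and 1174 in FEAT clones. The groups did not overlap, and the difference was 0.70 (SE 0.19, adjusted p = 0.241). Ddit4, an inhibitor of mTORC1 induced by hypoxia and other stresses, read 1471, 1643 and 1136 in control clones and 1072, 774 and 922 in FEAT clones. It too did not overlap and went the opposite way, by -0.67 (SE 0.19, adjusted p = 0.254). Hif1an, the asparagine hydroxylase FIH that blocks HIF from its coactivators, differed by 0.46 (adjusted p = 0.412), with 0.02 on its other probe. Lox, which crosslinks collagen, read 12088, 19252 and 9902 in control clones and 21400, 17062 and 21633 in FEAT clones, with overlap because of control 2. Its difference was 0.61 (adjusted p = 0.412). Over the 6 omissions of a clone it ran from 0.41 to 0.88, with adjusted p of 0.0454 to 0.723 (limma). Lox passed in 1 of them, without control 2, at 0.88 (adjusted p = 0.0454). In that omission 158 probes of the array were called, against 50 with all clones. Hif3a, an inhibitory relative of Hif1a, differed by 0.30 (adjusted p = 0.544). The muscle mutase gene Pgam2 differed by 0.34 (adjusted p = 0.448) and was not above background on any array. Of the 6, Lox alone had groups that overlapped. Of the other genes among the 41, Ak4, Pfkfb4 and Kdm3a, higher in FEAT clones, and Pfkfb2, lower, did not overlap either. Over all genes tested 15.2% did not overlap.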

How the data were processed

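Total RNA of 6 NIH3T3 clones was extracted on RNeasy columns, amplified and Cy3-labelled with the Illumina TotalPrep kit and hybridised to 1 array per clone (labels' protocols), with BeadStudio named in the submitters' processing notes. The deposited values are linear probe intensities without detection p, background-subtraction or scaling. The deposited value table of the series holds the same intensities multiplied by 1 factor per array (0.925 to 1.10). No 2 arrays were identical.

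Intensities were corrected with the normexp model fitted to the signals (offset 16), quantile-normalized and turned to log2 (R 4.3.3, limma 3.58.1). The 60% of probes with the highest mean were tested with lmFit and eBayes, two-sided, with Benjamini-Hochberg adjustment over 27169 probes. An exact permutation of 3 against 3 clones cannot give a two-sided p under 0.1, so none was run. The brightest probe stood for a gene. The background limit of an array lay 3 SDs above the mode on the log2 scale, the SD being that of values under the mode, taken around it. Taken around their own mean, the SD is smaller and 26 rather than 23 genes of the set lie above the limit on all arrays. The former was kept after both had been seen.

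Probes were named through the platform annotation (34885 with 1 gene, 18 with several, 10378 unnamed here). Values per clone are given for genes past the threshold, up to 3 per role with the smallest p, and those without overlap or with at least 2-fold differences. Of the further list the 6 with the smallest p are named, and any others without overlap. Ldha's promoter was added after the cores were counted. The genes, lists and tests were chosen with earlier results of these data known. Of these steps the limma test alone was tried on simulated data, drawn as normalized and filtered values. Alternatives covered the background correction, scaling, filter, variance model, probe and each clone left out. No probe coordinates are printed, since no source used here states a build for the probes.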

Additional observations from a re-analysis of the deposited data

How the results depend on the processing

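The count of 0 genes of the set called held in 7 scaling, filter and variance settings, with the second brightest probe, with only genes above background on all arrays (an alternative chosen after seeing the data), and in 6 omissions of a clone. Between 2 and 4 genes of the set had an unadjusted p under 0.05 there. The set's median difference stayed within 1 SD of the control clones (0.050) except without control 2 and without FEAT 3, and ran from -0.024 to 0.054 over the omissions. Its sign turned with the deposited value table (0.0044), without a filter (0.019) and with the second brightest probe (0.021). It also turned in every omission of a clone except that of FEAT 20 (-0.024). Over all probes, 50 were called, between 38 and 68 in the 7 settings, and from 0 to 158 over the omissions. The 0 was without control 1, where 1934 probes had an unadjusted p under 0.05 (limma). The 158 was without control 2, with 10 without control 3 and 18 without FEAT 3. Of the further list 0 to 1 genes were called over the omissions, the 1 being Lox without control 2.

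Of 23 genes followed one by one, 19 kept their direction throughout. With the second brightest probe the sign turned for Hif1a (0.063), Pfkl (-0.17) and Pkm (0.30), and without FEAT 20 for Pgam1 (-0.019, over the omissions -0.019 to 0.16). The cause was not tested. Ndrg1 had adjusted p of 0.0874 to 0.388 in the settings and 0.134 to 0.515 in the omissions. Adm had 0.342 to 0.598 and 0.0517 to 0.675. Dim probes such as Slc16a1 are limited by signal over background. No paired analysis was possible because the groups share 1 clone number, 3, which only names the clones.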
